A study of Mus musculus with 6 samples.

Results

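The presynaptic vesicle and release machinery is the set of proteins that fill a synaptic vesicle with transmitter, hold it at the release site, fuse it with the membrane and take it back. Its 34 genes were chosen by symbol and matched to Ensembl identifiers, and all 34 were among the 15441 genes with a value in at least 1 library of a mouse stroke series. In the terminal, the SNARE proteins Snap25, Stx1a and Vamp2 zip together to fuse the membranes, Syt1 senses the calcium that triggers fusion, and complexins and Unc13a set how ready a vesicle is. Nsf and its adaptors Napa and Napb then pull spent SNARE complexes apart, while Dnm1, Amph, Sh3gl2 and Synj1 retrieve the membrane and strip its clathrin coat. These proteins sit at release sites that can be far from the cell body, while most of their mRNA lies in the soma, so a terminal in the cortex may belong to a neuron whose mRNA is elsewhere.

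The series profiled the ipsilateral cerebral cortex by poly(A)-selected, strand-specific RNA-seq after photothrombosis, in which light activates Rose Bengal in the vessels of male C57/BL6J mice aged 6 to 8 weeks. The 6 libraries were sham (operated without illumination, taken at day 7 after the operation) and 1, 3, 7, 14 and 28 days after stroke. Each group was 1 library from RNA of 3 mice that was pooled; no value below has a replicate and no test was run. All 5 comparisons shared the sham library, and the labels give a mean of 33.6 M reads per sample but no depth for a single library.

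The deposited values are FPKM (sequenced fragments scaled to transcript length and library size) for transcript starts, transcript ends and splicing events. The value of a gene in a library was the largest of its summed starts, its summed ends and any single event. Ratios to sham are log2 with 0.1 FPKM added to both values, so 1 is 2-fold, for genes at 1 FPKM or more in either library. A member was called lower or higher when it differed from sham by at least 2-fold. Where 5 values follow the sham value, they are those of days 1, 3, 7, 14 and 28 in that order.

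The module label was checked first against neuron markers. Of the 12 neuron markers, 11 were listed in every library and Tubb3 in none, and their summed level was 1697 FPKM in sham, then 1759, 1357, 1673, 1919 and 1718 FPKM. The neuron sum was thus lowest at day 3 and highest at day 14. The median log2 ratio of these 11 was 0.03, -0.29, -0.14, 0.13 and 0.04 in order of time, with 9 of 11 below sham at day 3 and 8 at day 7, so the day 7 sum stayed near sham through Camk2a, at 293 FPKM in sham and 456 at day 7. The sum was led by Uchl1 in sham, at 316 FPKM, and by Camk2a in the other 5 libraries. Uchl1 was far below sham at day 3 (-1.26), a value read from its ends. Within the list, Map2 went its own way, at 113 FPKM in sham, then 68.4, 164, 91.7, 23.7 and 69.5 FPKM. These Map2 values are from summed starts, with no ends listed, for a long transcript (6258 nt). Starts of long genes were often low against ends in the day 14 library, as described below. The 8 astrocyte markers summed to 872 FPKM in sham, then 1009.6, 1679.7, 1313, 1222 and 905 FPKM, with Gfap rising from 85.8 in sham to 698 at day 3 and leading at days 1, 3 and 7, and Aldoc leading in the other 3 libraries. The rise of that sum lay mostly in Gfap and Vim, since the median log2 ratio of the 8 was -0.13, 0.34, 0.13, -0.05 and 0.00 in order of time. Below sham were 5 of 8 at day 1 and 4 at day 14. Slc1a2 was at -0.66 at day 14, when all genes in the longest of 20 length bins, as long as its 11595 nt, had a median of -0.37. The microglia and macrophage markers summed to 99.996 FPKM in sham, then 112, 389.7, 725, 480.4 and 126 FPKM. Among those compared, the median log2 ratio was 0.33, 1.60, 1.87, 2.11 and 0.11 in order of time. P2ry12 did not follow the list, at -1.35, 0.26, -0.03, -0.44 and -0.21. C1qa led that list except at day 7, when Lyz2 did, and Cx3cr1 was not listed in sham or at days 3, 7 and 28 nor Tmem119 in sham or at days 1, 3 and 14. The astrocyte and microglia sums were thus highest at days 3, 7 and 14, when several presynaptic members were low. In bulk tissue, fewer cells of a type and less RNA per cell cannot be told apart, and the part of these shifts in the member values was not tested.

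Oligodendrocyte markers summed to 1829.6 FPKM in sham, then 2291, 1763, 2084, 2026 and 1628 FPKM, led by Mbp throughout, with Mobp not listed. Endothelial markers were low, at 8.99 FPKM in sham, then 9.19, 16.7, 8.99, 7.61 and 8.95 FPKM, led by Pecam1 except at day 7, when Flt1 led; Cldn5 was listed at day 1 alone and Flt1 was missing at day 14. The labelled tissue was also checked for neighbouring regions. Thalamus and hypothalamus markers summed to 27.0 FPKM in sham, then 98.8, 34.7, 69.7, 65.5 and 32.6 FPKM, so they were highest in the day 1, 7 and 14 libraries. The rise lay mostly in Calb2, Oxt, Avp and Pmch. Rora was below sham in all 5 stroke libraries (-0.31 at day 1 and -0.85 at day 14). It has a long transcript (10878 nt). All genes in the longest of 20 length bins had a median of -0.30 at day 1 and -0.37 at day 14. Prkcd and Tcf7l2 were mixed, Prkcd at -0.13, 0.38 and 0.63 at days 1, 7 and 14. Tcf7l2 was at 1.19 and 0.80 at days 1 and 7 and under 1 FPKM at day 14. Calb2 led that list except at day 7, when Avp led; Oxt, Avp, Pmch and Pomc were not listed in sham, Pomc was also missing at day 3 and day 28 and Pmch at day 28, and Hcrt and Agrp were in no library. Striatum markers summed to 375 FPKM in sham, then 435, 317, 321, 499.8 and 504.3 FPKM, led by Ppp1r1b except at day 7, when Penk led, with Drd1 in no library. Their median log2 ratio was 0.03, -0.22, 0.02, 0.45 and 0.41 in order of time. The day 7 sum was low through Ppp1r1b (-0.69), and at days 14 and 28 no compared striatum marker was below sham. The libraries therefore differed in some transcripts typical of deeper regions, and the part of that difference in the member values was not tested.

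Summed over the 34 members, the module stood at 4533 FPKM in sham, then 4346, 3498, 3705, 3946 and 4207 FPKM. The sum was 95.9%, 77.2%, 81.7%, 87.0% and 92.8% of its sham level on days 1, 3, 7, 14 and 28, so it was lowest at day 3. At day 28 it was still below sham, as were 30 of the 34 members, while Dnm1 had gone from 289 to 408 FPKM. Rims1, not listed at days 3, 14 and 28, counted as 0 in the sums of those days. Snap25 was the most abundant member in all 6 libraries and supplied 15.6% of the sum in sham and 12.3% at day 14. Among listed members, Slc17a6 was the least abundant except at day 14, when Doc2a was. From summed starts, Slc17a6 was below Doc2a at day 14 too, at 0.653 against 6.79 FPKM.

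Few single members moved far. At day 1, 2 members were called lower, Stx1a and Synj1, against 4.48% of all compared genes, and 0 higher against 5.11%. At day 3 the 2 lower were Synj1 and Rims1, the latter not listed at all, against 2.53%, and 0 were higher against 8.54%. At day 7, Rims1 and Synj1 were lower against 2.12%, and 0 higher against 8.53%. So from day 1 to day 7 the calls fell on Stx1a, Synj1 and Rims1. At day 14, Stx1a, Synj1 and the unlisted Rims1 were lower against 6.92%, with 0 higher against 8.97%, and at day 28 the unlisted Rims1 alone was lower against 2.79%, with 0 higher against 3.68%. The lower counts were 5.88%, 5.88%, 5.88%, 8.82% and 2.94% of the 34 members, while of the 6709 genes at least as abundant in sham as the least abundant member 1.97, 1.59, 1.42, 3.79 and 1.30% were lower and 1.39, 1.65, 1.55, 2.36 and 0.745% higher in order of time. For 34 genes those shares would give 0.669, 0.542, 0.481, 1.29 and 0.441 lower and 0.471, 0.563, 0.527, 0.801 and 0.253 higher. The counts of lower members thus exceeded these by fewer than 2 genes, those of higher members fell short by fewer than 1, and with this gene value 2-fold changes were seen in Stx1a, Synj1 and Rims1 only. With summed starts as the value, Pclo and Unc13a were lower as well at day 1, Rph3a at day 3, Bsn, Cadps, Rims2, Slc17a6, Slc17a7 and Unc13a at day 14 and Pclo at day 28, so the list depended on the value most at day 14. Pclo had no start listed at day 1, so its call there took the value as 0.

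The small shifts were less even. Members below sham numbered 21, 32, 33, 22 and 30 of 34 on days 1, 3, 7, 14 and 28. Among all genes at least as abundant in sham as the least abundant member, Slc17a6 (6.18 FPKM, n = 6709), the share below sham was 48.7%, 57.7%, 57.2%, 46.8% and 49.98% on the same days. The median log2 ratio of the members was -0.04, -0.30, -0.27, -0.10 and -0.13 on days 1, 3, 7, 14 and 28, and that of those genes lay between -0.05 and 0.04. Day 3 and day 7 were therefore the libraries in which nearly the whole module sat a little under sham, with Rims2 (0.04) and Bsn (0.03) just above it at day 3 and Slc17a6 (0.04) at day 7.

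**Figure D1:**
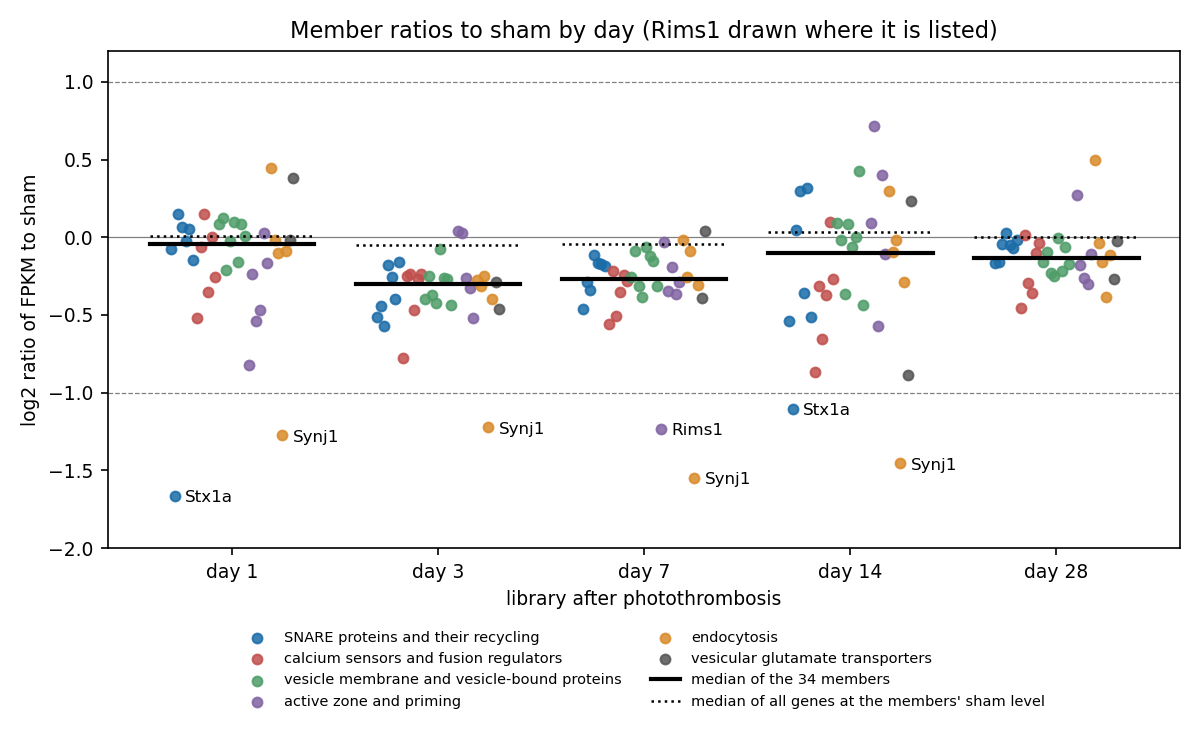
Log2 ratio of FPKM to sham for each member (points, coloured by role) at each day, with the member median (solid bar). The dotted bar is the median of all genes at least as abundant in sham as the least abundant member, and dashed lines mark 2-fold. The points form a tight band under 0 at days 3 and 7 and a wide spread at day 14, and the named genes are those called lower.

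Of the 33 members listed in every library (all but Rims1), 18 had their lowest value at day 3, 9 at day 14, 3 each at day 1 and day 7, and 0 in sham or at day 28. Among all 11565 genes listed in all 6 libraries and at 1 FPKM or more in any, the lowest library was day 3 for 17.0% and day 14 for 21.5%. The highest library was sham for 16 members (48.5%, against 13.0% of all genes), day 14 for 8 (24.2%, against 27.8%), day 1 for 6 and day 28 for 3. The 8 highest at day 14 were Vamp2, Napa, Cplx1, Syp, Syn1, Syngr3, Bsn and Unc13a, of which Cplx1 (0.10), Syp (0.09) and Syn1 (0.08) exceeded sham by no more than the median of all genes (0.10). Bsn and Unc13a stood there on their ends, and from summed starts both were lowest at day 14. From summed starts, 15 of 32 members were lowest at day 3 and 14 at day 14, with 15 highest in sham and 7 at day 14, and from summed ends 14 and 7 of 29, with 15 and 8. Sham was thus the commonest high point and day 3 the commonest low point in both, though from starts by only 1 member over day 14. The day 1 and day 14 libraries also showed the transcript-length trend described below, so the count was repeated without them, which was decided with the values in view. Then 24 members (72.7%, against 25.9% of all genes) were lowest at day 3 and 27 (81.8%, against 24.1% of all genes) were highest in sham. From the lowest to the highest library, 21 of 33 members ranged less than 1.5-fold (63.6%). Of 6671 genes at least as abundant in sham as the least abundant member, 48.9% did, but these were not matched to the members in abundance. Stx1a, Synj1 and, through its ends at day 14, Bsn ranged 2-fold or more (9.09%, against 17.1% of those genes).

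**Figure D2:**
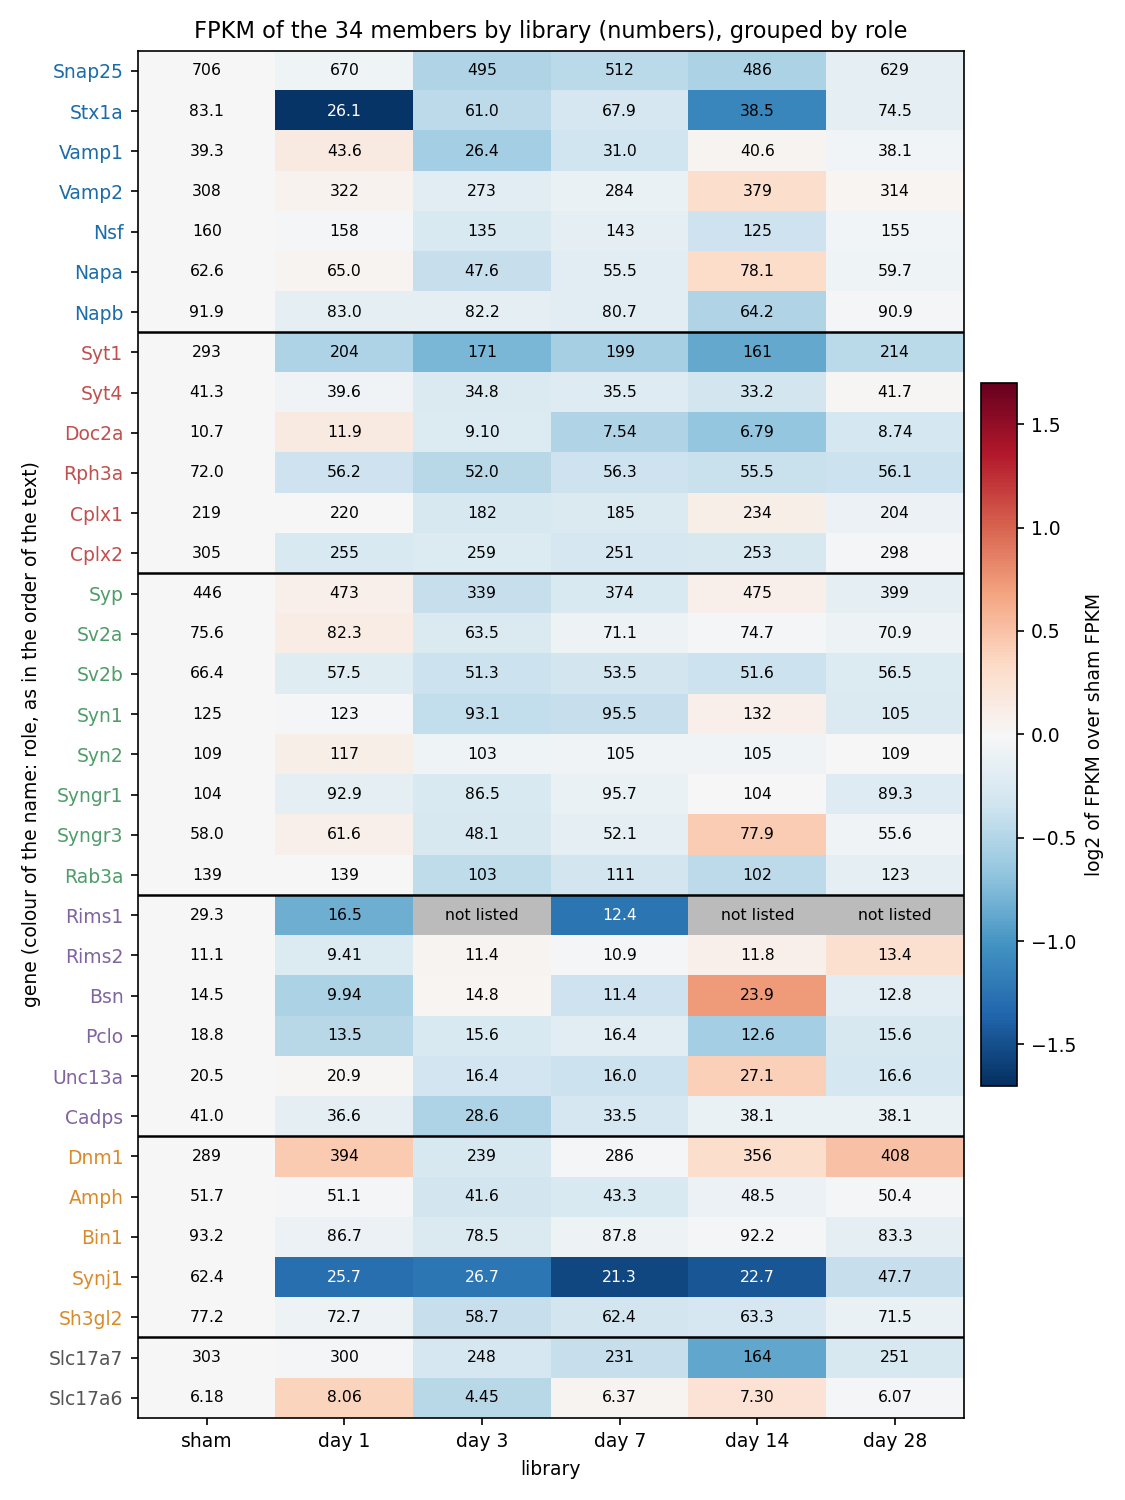
FPKM of the 34 members (printed numbers) in the 6 libraries, coloured by the log2 ratio to sham without added FPKM and grouped by role in the order of the text; grey marks libraries in which Rims1 is not listed. Stx1a and Synj1 carry the darkest cells.

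The SNARE proteins and their recycling factors (7 genes) summed to 1451 FPKM in sham, then 1368, 1119, 1174, 1212 and 1362 FPKM, or 77.1% of sham at day 3 and 93.8% at day 28. Snap25, the membrane-bound SNARE of the terminal, was at 706 FPKM in sham, then 670.4, 495, 512, 486 and 629 FPKM. It was thus low from day 3 to day 14 and close to sham at day 1 and day 28, with log2 ratios of -0.51, -0.46 and -0.54 at days 3, 7 and 14. Stx1a, the syntaxin that pairs with it, lies at chr5:135023482-135051100 and was at 83.1 FPKM in sham, then 26.1, 61.0, 67.9, 38.5 and 74.5 FPKM. This was a fall in 2 separate libraries, day 1 (log2 ratio -1.67) and day 14 (-1.11), with values nearer sham at day 3 (-0.44), day 7 (-0.29) and day 28 (-0.16). Its start at the annotated 5′ end went from 82.8 FPKM in sham to 26.0 at day 1 and 31.5 at day 14, and its end from 82.7 to 25.8 and 38.5, so start and end fell together.

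Vamp2, the SNARE of the vesicle itself, was above its sham level at day 14, at 308 FPKM in sham, then 322, 273, 284, 379 and 314 FPKM, by about as much as genes of its length (log2 ratio 0.30, or 0.04 after the median of its length bin was subtracted). Its paralog Vamp1, which serves the same step in fewer neurons, was at 39.3 FPKM in sham, then 43.6, 26.4, 31.0, 40.6 and 38.1 FPKM. Of the FPKM of the pair, Vamp1 supplied 11.3% in sham, then 11.9, 8.82, 9.83, 9.67 and 10.8%, so its share was smallest at day 3. Nsf, the ATPase that separates used SNARE complexes, ranged from 125 (day 14) to 160.4 (sham) FPKM and was read from its start, since its listed ends reached only 1.11 FPKM in sham. The adaptors that bind Nsf to those complexes crossed over. Napa was at 62.6 FPKM in sham, then 65.0, 47.6, 55.5, 78.1 and 59.7 FPKM, and Napb at 91.9 FPKM in sham, then 83.0, 82.2, 80.7, 64.2 and 90.9 FPKM. Napb was the more abundant adaptor in 5 libraries and Napa at day 14, when its share of the pair was 54.9% against 40.5% in sham. Against genes of their length, Napa was at 0.10 and Napb at -0.46 at day 14, so the crossing lay mostly in Napb.

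The calcium sensors and fusion regulators (6 genes) summed to 941 FPKM in sham, then 786, 708, 735, 744 and 822 FPKM. Syt1, the sensor for fast synchronous release, was at 293 FPKM in sham, then 204, 171, 199, 161 and 214 FPKM. It was below sham in all 5 stroke libraries, lowest at day 14 (log2 ratio -0.87) and day 3 (-0.78), and at -0.45 at day 28. These ratios rest on starts, which exceeded ends in sham; from its ends Syt1 was at 216 FPKM in sham and 214 at day 28, with ratios of -0.34, -0.43 and -0.02 at days 3, 14 and 28, so by ends it was back at sham. Syt4, a synaptotagmin that binds calcium poorly, ranged from 33.2 (day 14) to 41.7 (day 28) FPKM. Syt1 was 7.08 times Syt4 in sham and between 4.84 and 5.59 times in the stroke libraries, but from ends 5.23 times in sham and between 4.30 and 5.12 after stroke. Doc2a, a high-affinity sensor linked to spontaneous and asynchronous release, fell from 10.7 FPKM in sham and 11.9 at day 1 to 6.79 at day 14. These Doc2a values are from summed starts, with no ends listed, and its largest single event went from 7.88 in sham to 5.25 at day 14.

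Rph3a, an effector that binds Rab3a on vesicles, was at 72.0 FPKM in sham, then 56.2, 52.0, 56.3, 55.5 and 56.1 FPKM. Its level was thus even after sham by its ends, but its summed starts fell to 31.1 FPKM at day 3 (-1.21). A start 405 bases downstream of the annotated 5′ end had 13.4 FPKM in sham, then 37.3, 16.2, 41.1, 11.7 and 56.1 FPKM, while a start 29539 bases downstream was listed in sham at 58.6 and at day 14 at 43.8 only. Sham and day 14 therefore shared a start that the other 4 libraries did not list. The complexins, which clamp and then promote fusion, stayed close to sham. Cplx1 ranged from 182 (day 3) to 234 (day 14) FPKM and Cplx2 from 251 (day 7) to 305 (sham) FPKM. Of the pair, Cplx1 made up 41.8% in sham, then 46.3, 41.3, 42.5, 48.0 and 40.7%, its share being largest in the day 1 and day 14 libraries. Cplx1 is the shorter transcript, and against genes of their length Cplx1 was at -0.10 and Cplx2 at -0.19 at day 1 and at -0.17 and -0.13 at day 14, so the shift of the share was small at day 1 and gone at day 14.

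The 8 vesicle membrane and vesicle-bound proteins summed to 1122 FPKM in sham, then 1147, 887, 958, 1122 and 1009 FPKM. All 8 were below sham at day 3, day 7 and day 28, with medians of -0.32, -0.20 and -0.17, and the sum at day 14 was 99.998% of sham. Syp, the most abundant protein gene of the vesicle membrane here, was at 446 FPKM in sham, then 473, 339, 374, 475 and 399 FPKM. Syngr3, a relative of Syp, was at 58.0 FPKM in sham, then 61.6, 48.1, 52.1, 77.9 and 55.6 FPKM, with its high point at day 14 (log2 ratio 0.42, or 0.14 against genes of its length). Its paralog Syngr1 showed no such rise and ranged from 86.5 (day 3) to 104 (sham) FPKM. Sv2a, the vesicle glycoprotein that binds levetiracetam, ranged from 63.5 (day 3) to 82.3 (day 1) FPKM and Sv2b, its paralog, from 51.3 (day 3) to 66.4 (sham) FPKM. At day 14, Sv2b was below sham (-0.36), though less so against genes of its length (-0.15), and the largest fall of the group was that of Rab3a (-0.44, or -0.86 against genes of its length).

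Syn1 and Syn2 tether the reserve pool of vesicles to one another and to actin. Syn1 was at 125 FPKM in sham, then 123, 93.1, 95.5, 132 and 105 FPKM, and Syn2 stayed within 103 (day 3) to 117 (day 1) FPKM, the narrowest range of all 33 members listed throughout, read from its starts, since its ends were far lower (20.6 in sham and 31.1 at day 14). Syn1 was therefore the more abundant synapsin in sham and at days 1 and 14, and Syn2 at days 3, 7 and 28. Rab3a, the small GTPase that brings vesicles to the release site, was at 139 FPKM in sham, then 139, 103, 111, 102 and 123 FPKM, low at days 3, 7 and 14 alike.

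The 6 active zone and priming genes had the longest transcripts of any role, with a median of 9056 nt, and among the least abundant, summing to 135 FPKM in sham, then 107, 86.8, 101, 113 and 96.5 FPKM. In these sums the unlisted Rims1 counted as 0 at days 3, 14 and 28, against 29.3 FPKM in sham. The sums of those days therefore cannot be compared directly with that of sham. Rims1, a scaffold that links vesicles, calcium channels and Unc13a, lies at chr1:22286251-22805994 and was at 29.3 FPKM in sham, 16.5 at day 1 and 12.4 at day 7. It was not listed at days 3, 14 and 28, and no event of any gene overlapped its annotated span on either strand in those 3 libraries. Most of its value came from a start 373151 bases downstream of the annotated 5′ end, at 20.6 FPKM in sham, where an annotated transcript of 2189 nt begins. Its paralog Rims2 was listed throughout and was at 11.1 FPKM in sham, then 9.41, 11.4, 10.9, 11.8 and 13.4 FPKM, highest at day 28 through its ends; from starts it was at -1.09 at day 14 and -0.13 at day 28.

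Bsn and Pclo are the giant scaffolds that carry active zone material to the terminal. Bsn was at 14.5 FPKM in sham, then 9.94, 14.8, 11.4, 23.9 and 12.8 FPKM, and Pclo at 18.8 FPKM in sham, then 13.5, 15.6, 16.4, 12.6 and 15.6 FPKM. At day 1 both were below sham, with log2 ratios of -0.54 and -0.47, while at day 14 Bsn was above it (0.72) and Pclo below (-0.57) by their ends. From summed starts the 2 changed places at day 14, Bsn at -3.18 and Pclo at 0.48. Unc13a, which primes docked vesicles by opening Stx1a, was at 20.5 FPKM in sham, then 20.9, 16.4, 16.0, 27.1 and 16.6 FPKM; its value at day 14 rested on its ends, and summed starts fell to 1.80 FPKM there, the lowest of the 6 libraries. Cadps, another priming factor that acts mainly on dense-core vesicles, was lowest at day 3 by its ends, at 28.6 FPKM against 41.0 in sham.

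The 5 endocytosis genes summed to 574 FPKM in sham, then 631, 445, 501, 583 and 660.5 FPKM. Dnm1, the GTPase that pinches off the vesicle neck, was at 289 FPKM in sham, then 394, 239, 286, 356 and 408 FPKM, and carried most of that sum. It was read from several starts, its ends being listed at day 3 alone. The start at the annotated 5′ end was at 78.8 FPKM in sham, then 74.6, 47.2, 37.6, 86.7 and 183 FPKM. The Dnm1 peak at day 28 was thus also present at that start, whereas the rise at day 1 was not. Amph and Bin1, the amphiphysins that bend membrane and recruit Dnm1, ranged from 41.6 (day 3) to 51.7 (sham) and from 78.5 (day 3) to 93.2 (sham) FPKM. Sh3gl2, the endophilin that brings Synj1 to the neck, was at 77.2 FPKM in sham, then 72.7, 58.7, 62.4, 63.3 and 71.5 FPKM.

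Synj1, the phosphatase whose action sheds the clathrin coat, lies at chr16:90936092-91011308 and was at 62.4 FPKM in sham, then 25.7, 26.7, 21.3, 22.7 and 47.7 FPKM. All 4 libraries from day 1 to day 14 were under 27 FPKM and day 28 lay between them and sham, with log2 ratios of -1.27, -1.22, -1.55, -1.46 and -0.39 in order of time. The day 14 ratio rests on ends, and from summed starts it was -2.71, at 8.75 FPKM against 57.9 in sham. Most of the sham level came from an internal start 60889 bases downstream of the annotated 5′ end, which matches the 5′ end of an annotated protein-coding transcript of 3501 nt. That start was at 40.1 FPKM in sham, then 4.16, 0.950, 0.972, 0.799 and 20.8 FPKM. Starts within 500 bases of the annotated 5′ end, which give the long transcripts, were at 17.8 FPKM in sham, then 18.2, 25.7, 20.3, 7.95 and 22.5 FPKM. The fall of Synj1 to day 7 thus lay in the internal start, while the starts at the 5′ end were at or above their sham level until day 7 and below it at day 14 alone. In that library starts were low against ends in many long genes, as described below, so the day 14 drop was not particular to Synj1.

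Slc17a7 and Slc17a6 load vesicles with glutamate, the former in most cortical excitatory neurons and the latter mainly in thalamic and other subcortical neurons. Slc17a7 was at 303 FPKM in sham, then 299.8, 248, 231, 164 and 251 FPKM. It fell stepwise to its low at day 14 (log2 ratio -0.89) and was at -0.27 at day 28. Slc17a6 was at 6.18 FPKM in sham, then 8.06, 4.45, 6.37, 7.30 and 6.07 FPKM, highest at day 1, and its day 14 value came from its ends, against 0.653 FPKM of summed starts. The ratio of Slc17a7 to Slc17a6 was 49.1 in sham and 22.5 at day 14, but from summed starts it was 49.1 and 169, so its direction at day 14 depended on the value used. Slc32a1, the vesicular transporter of inhibitory neurons, which is not a member, was at 29.6 FPKM in sham, then 37.6, 27.5, 31.6, 42.4 and 38.2 FPKM.

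At day 14 the starts and ends of several members parted. Bsn had a start at its annotated 5′ end of 14.3 FPKM in sham, then 9.57, 14.6, 11.4, 1.51 and 12.4 FPKM, whereas its summed ends were 14.5 FPKM in sham, then 9.94, 14.8, 11.4, 23.9 and 12.8 FPKM. The value of Bsn at day 14 therefore rested on its ends, and from starts alone it would have been far below sham rather than above. Unc13a starts at the 5′ end were 20.2 FPKM in sham, then 8.70, 15.2, 15.5, 1.71 and 14.7 FPKM, and its ends 19.5 FPKM in sham, then 18.1, 16.4, 16.0, 27.1 and 16.6 FPKM. In Unc13a the gap was thus present at day 1 and much wider at day 14. Slc17a6 starts fell from 6.003 FPKM in sham to 0.653 at day 14 while its ends went from 6.003 to 7.30. Cadps starts fell from 25.1 to 4.26 while its ends went from 41.0 to 38.1. In Slc17a7 both fell, but the start further, from 294 to 104 FPKM against 303 to 164 for the ends. Syp differed at day 1 instead, when 199 FPKM began at the annotated 5′ end and 275 at a start 834 bases downstream that stayed under 4 FPKM in every other library.

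**Figure D3:**
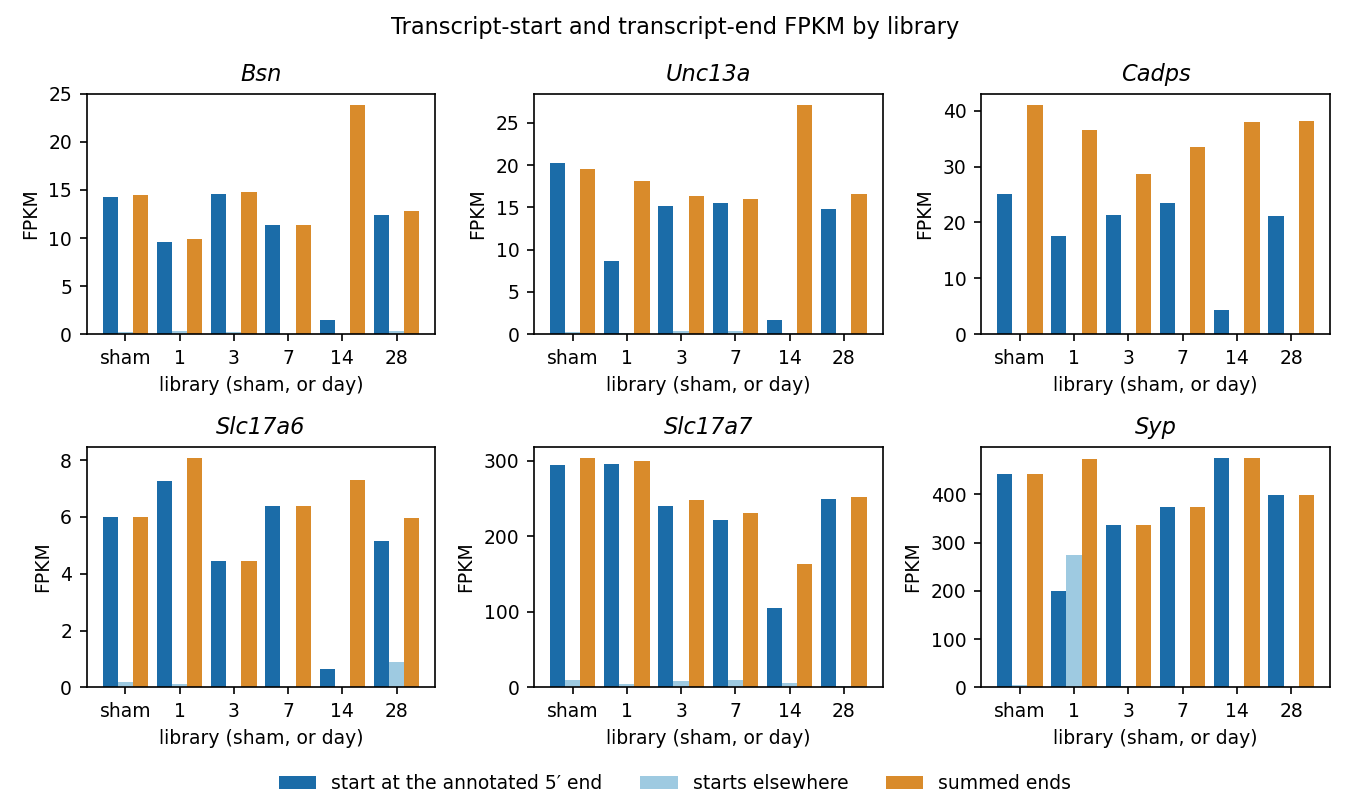
FPKM of starts within 500 bases of the annotated 5′ end (dark blue), of other starts (light blue) and of summed ends (orange) of 6 members in each library. The dark blue bar collapses against the orange bar at day 14 for Bsn, Unc13a, Cadps and Slc17a6.

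The same gap was common outside the module. Of all genes with summed ends of at least 1 FPKM, the share whose summed starts were below 50% of their ends was 8.02% in sham, then 10.8, 7.39, 7.69, 19.0 and 8.94%. For genes with transcripts longer than the member median it was 10.2% in sham, then 16.5, 9.59, 9.43, 33.6 and 12.01%. Among members it held for Pclo in every library but day 14, with Unc13a and Cadps at day 1, and at day 14 for Bsn, Cadps, Rims2, Slc17a6, Synj1 and Unc13a, 6 of 28 members or 21.4%. In the day 14 library, and less so at day 1, starts were thus low against ends more often than in the others, above all in long genes; the reason was not tested.

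Transcript length was therefore set beside the ratios. The longest annotated transcript of a member ranged from 1556 nt (Rab3a) to 20084 nt (Pclo), with a median of 4143.5 nt against 3176 nt for all genes. Split at the member median, the shorter of all genes had a median log2 ratio of 0.09, 0.02, 0.05, 0.23 and 0.03 on days 1, 3, 7, 14 and 28, and the longer of -0.12, 0.04, 0.00, -0.19 and 0.01. So shorter and longer genes lay furthest apart at day 14, where the short Stx1a and Rab3a nevertheless lay below sham. The long Bsn and Unc13a lay above sham by their ends (0.72 and 0.40) and far below by summed starts (-3.18 and -3.44).

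**Figure D4:**
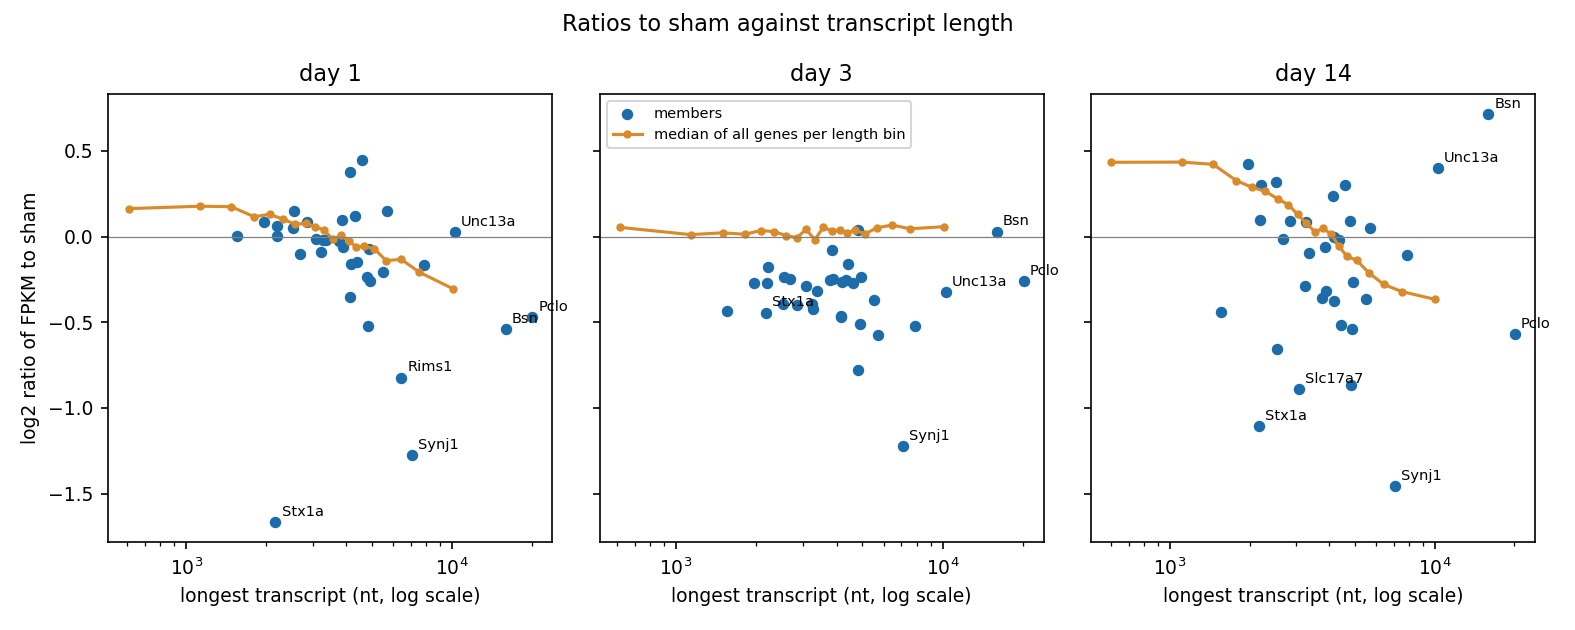
Log2 ratio to sham against the longest annotated transcript (log scale) for members (points) and for the median of all genes in 20 length bins (line) at day 1, day 3 and day 14; Rims1 is left out where it is not listed, and Bsn and Unc13a at day 14 are read from ends. The line slopes down at days 1 and 14 and is flat at day 3, where nearly all members lie below it.

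With the same split, the 17 shorter members had a median log2 ratio of 0.00 and the 17 longer of -0.21 at day 1, and -0.06 and -0.27 at day 14. At day 3 the medians were nearly equal, -0.29 and -0.33, and at day 7 they were -0.24 and -0.31. The low values of day 3 and day 7 were thus shared by short genes such as Rab3a and Stx1a and long ones such as Cadps and Unc13a. When the median ratio of all genes in the same of 20 length bins was subtracted, the member median was -0.07, -0.32, -0.28, -0.16 and -0.14 in order of time, and 33 of 34 members were below their bin at day 3. At day 14 this set Stx1a to -1.37, Slc17a7 to -1.02, Synj1 to -1.13 and Bsn to 1.08, the last from its ends, and brought Vamp2 to 0.04, Napa to 0.10 and Syngr3 to 0.14. The day 14 rises of these 3 short genes were thus close to those of other genes of their length.

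Splicing was read from exons that are listed both as included and as skipped. Members had 11 such exon forms listed in all 6 libraries, in 7 genes, and 10 had at least 1 FPKM over both forms in each library. Of these 10, 8 in Rims2, Cadps, Dnm1, Bin1 and Synj1 varied by more than 10 percentage points. This count has no share over the exon forms of all genes beside it, so whether it is unusual is unknown. Inclusion of the 21-base exon of Cadps was 36.6% in sham, then 34.5, 10.6, 17.0, 48.0 and 27.5%. It was thus lowest at day 3 and highest at day 14, while inclusion of a 69-base exon of Cadps ranged less, from 27.5% to 42.4%. For the 66-base exon of Rims2 it was 86.4% in sham, then 76.0, 77.8, 90.1, 68.3 and 80.8%. The 72-base exon of Bin1 stood out at day 28 instead, at 53.3% against 24.02% to 33.6% in the other 5 libraries. A 37-base exon of Dnm1 ranged from 22.2% to 42.5%. Stx1a kept its 75-base exon in at least 99.3% of transcripts in every library, so its low days did not come with exon skipping there.

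In 2 members, chosen after their values were seen, an exon was used with alternative ends. A Synj1 exon near the 3′ end occurs as 24 bases or, with a later acceptor, as 21, and the share of the 24-base form was 91.7% in sham, then 86.0, 95.0, 99.6, 30.5 and 89.1%. The Synj1 forms thus changed places at day 14, when the 24-base form was at 6.47 FPKM and the 21-base form at 14.7. In all 3 annotated transcripts with the 24-base form, the stop codon lies in this exon. Amph has an exon of 57 or 45 bases, and its 57-base form made up 58.1% in sham, then 62.2, 68.1, 62.2, 38.0 and 62.0%. Amph too had its forms in reverse order at day 14. The exons are shown because their inclusion or length set the forms apart, read from the GENCODE M21 transcripts (GRCm38, the build of the deposited mm10 coordinates), with the bases that only the longer form holds in capitals and the exons of Cadps and Rims2, included or skipped as a whole, without; Cadps and Synj1 are on the minus strand, Amph and Rims2 on the plus strand, at chr16:90940473-90940496, chr13:19121275-19121331, chr14:12468346-12468366 and chr15:39517806-39517871 in the order below.
Synj1 24-base form: CAGgagcaaccaacagggtaacag
Amph 57-base form: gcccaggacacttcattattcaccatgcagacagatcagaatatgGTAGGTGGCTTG
Cadps 21-base exon: ccacatgttgataaaggagaa
Rims2 66-base exon: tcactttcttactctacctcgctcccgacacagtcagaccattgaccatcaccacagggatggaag

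**Figure D5:**
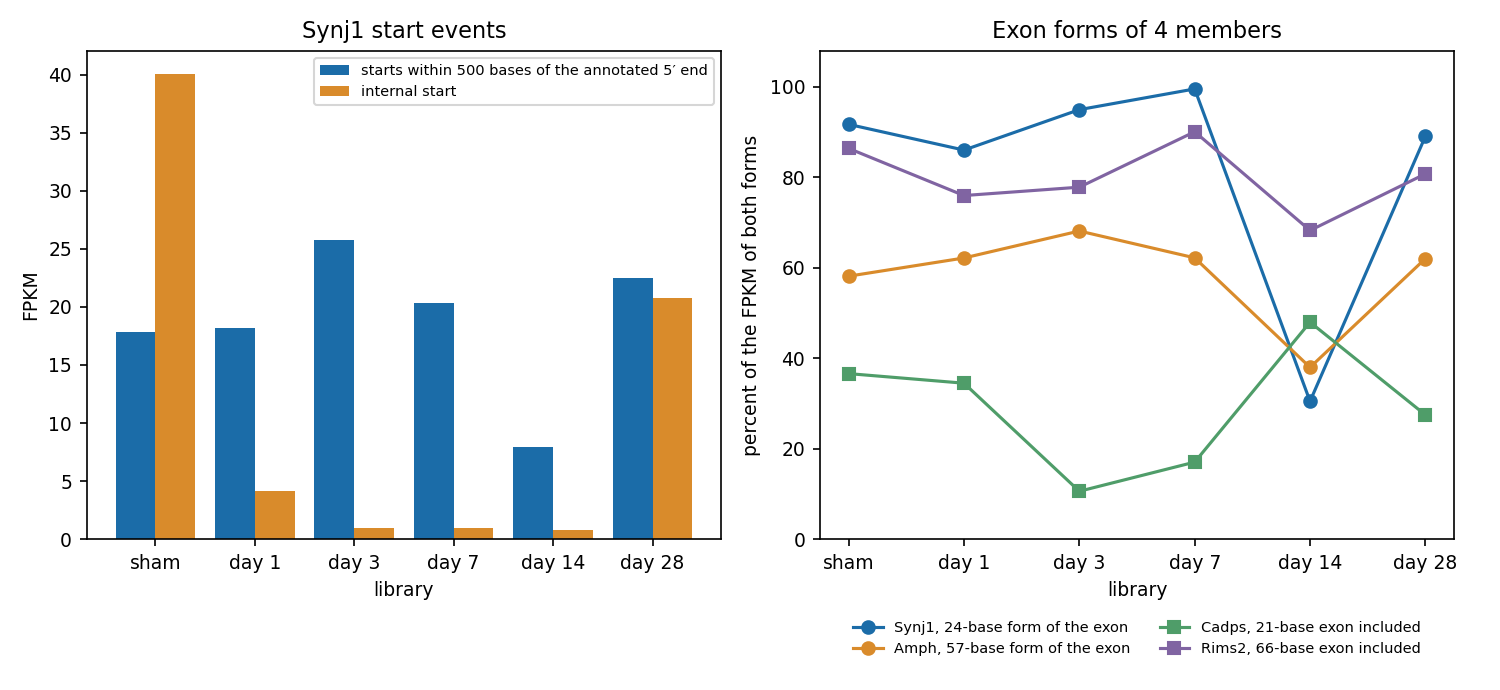
Left, FPKM of Synj1 starts within 500 bases of the annotated 5′ end (blue) and of its internal start (orange) by library; right, the percent of the named exon form among both forms in Synj1, Amph, Cadps and Rims2. The internal start is high in sham and at day 28, and the Synj1 and Amph forms drop at day 14.

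Among the 9 pairs of related members with both genes listed at day 14, which leaves out Rims1 and Rims2, 3 had log2 ratios of opposite sign at day 14 that differed by more than 0.5: Napa and Napb, Bsn and Pclo, and Slc17a7 and Slc17a6. From summed starts, Bsn (-3.18) and Slc17a6 (-3.06) were below sham, as was Slc17a7 (-1.45), and Pclo (0.48) was above. Napa and Napb were read from starts already, and the ends of Napa were under 0.01 FPKM in every library, so the sign of Napa rests on its starts alone. Because the partners do the same task in the terminal, their promoters are shown, from RefSeq (GRCm38.p6), as the part of the 250 bases before the start that overlaps no annotated exon. For Pclo the listed start lay 165945 bases downstream of the annotated 5′ end, so its window is not next to a start listed here. The windows are chr7:16098330-16098457 (plus strand), chr2:148732468-148732670 (minus), chr9:108190385-108190530 (minus), chr5:14514668-14514917 (plus), chr7:45163671-45163920 (plus) and chr7:51621580-51621829 (plus). Capitals mark matches, on either strand, to 6 motifs known from promoters of neuronal and housekeeping genes. The cyclic AMP response element is written TGACGTCA. Its shorter core, which many promoters carry alone, is TGACG. The E box read here was the palindrome CACGTG. The GC box bound by Sp1 is written GGGCGG. The site bound by NF-Y is CCAAT, which on the other strand reads as its reverse complement. The core of the site bound by NRF1 was taken as GCGCATGC.
Napa: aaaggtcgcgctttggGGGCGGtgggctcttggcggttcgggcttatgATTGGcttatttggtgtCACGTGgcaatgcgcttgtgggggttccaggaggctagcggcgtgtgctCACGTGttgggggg
Napb: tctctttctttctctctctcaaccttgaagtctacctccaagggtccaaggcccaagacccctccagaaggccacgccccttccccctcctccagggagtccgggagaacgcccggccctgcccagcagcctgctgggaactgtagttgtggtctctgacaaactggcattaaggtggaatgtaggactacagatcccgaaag
Bsn: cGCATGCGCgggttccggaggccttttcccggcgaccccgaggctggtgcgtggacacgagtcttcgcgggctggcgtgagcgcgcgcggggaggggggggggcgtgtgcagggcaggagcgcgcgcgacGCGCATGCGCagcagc
Pclo: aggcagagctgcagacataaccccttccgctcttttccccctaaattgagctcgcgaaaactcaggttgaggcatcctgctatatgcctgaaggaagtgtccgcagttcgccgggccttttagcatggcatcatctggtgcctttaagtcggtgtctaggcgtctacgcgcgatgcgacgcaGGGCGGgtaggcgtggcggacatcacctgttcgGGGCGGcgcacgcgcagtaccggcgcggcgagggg
Slc17a7: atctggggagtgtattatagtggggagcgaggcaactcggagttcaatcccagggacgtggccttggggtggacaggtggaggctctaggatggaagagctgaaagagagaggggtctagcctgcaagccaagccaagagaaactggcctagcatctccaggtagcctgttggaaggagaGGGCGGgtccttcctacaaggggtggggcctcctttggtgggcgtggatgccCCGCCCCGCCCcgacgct
Slc17a6: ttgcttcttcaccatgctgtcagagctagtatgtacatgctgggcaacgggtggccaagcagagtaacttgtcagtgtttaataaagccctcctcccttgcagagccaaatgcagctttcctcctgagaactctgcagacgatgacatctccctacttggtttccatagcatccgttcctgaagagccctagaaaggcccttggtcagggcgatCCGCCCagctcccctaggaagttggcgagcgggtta

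In the bases shown, Napa held 2 copies of CACGTG along with a GC box and, on the other strand, the NF-Y site, while Napb held none of the 6 motifs. Bsn held the NRF1 core near both ends, at the first on the other strand, and Pclo, Slc17a7 and Slc17a6 held only the GC box. RefSeq promoters were found for 27 of the 34 members. Over the full 250 bases, the GC box occurred in at least 1 window of 18 of these 27 against 32.7% of 32851 promoters of all genes, and the NF-Y site in 7 against 33.8%. The core TGACG occurred in 8 (Rab3a, Sh3gl2, Stx1a, Syn1, Synj1 and Unc13a, with Napa in the part not shown and Slc17a6 in its other window) against 17.8%, and the whole element in Sh3gl2 and Syn1 against 1.55%. The E box occurred in Napa, Nsf and Sv2b against 6.02%, and the NRF1 core in Bsn and Syn1 against 2.26%. A gene with several windows has more chances of a match than a single promoter, a match is not a measured binding site, and members with TGACG included both Stx1a and Synj1, called lower, and Napa, which was above sham at day 14.

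A list of 60 other presynaptic genes was read beside the members. Their median log2 ratio was -0.07, -0.21, -0.16, -0.11 and -0.11 on days 1, 3, 7, 14 and 28, so it was lowest at day 3 as in the members. Called lower were Ppfia2 and Rab27b at day 1 (2 of 59), Cacna1b and Pip5k1c at day 3 (2 of 60), Atp6v1g2 at day 7 (1 of 59) and Cacna1b at day 28 (1 of 59). At day 14, 6 of 58 were lower, Cacna1b, Dnajc6 and Erc1 among those listed and Sv2c, Syt2 and Syt10 because they were not listed. Of all compared genes, 4.48, 2.53, 2.12, 6.92 and 2.79% were lower and 5.11, 8.54, 8.53, 8.97 and 3.68% higher in order of time. Above 2-fold in the list were only 2 genes under 1 FPKM in sham, Syn3 at days 1, 3, 7 and 28 and Slc17a8 at day 3 (1.02 FPKM, not listed in sham). Such genes were compared only where a stroke library reached 1 FPKM, so a comparison of Syn3 already required a rise, and at day 14 (0.8502 FPKM) it was not compared. Pip5k1c, which makes the lipid that Synj1 removes, was at 89.8 FPKM in sham, then 80.8, 36.8, 56.3, 73.7 and 94.1 FPKM, and Atp6v1g2, a subunit of the vesicle proton pump, at 192 FPKM in sham, then 198, 162, 45.4, 244 and 118 FPKM. In sham the 3 genes not listed at day 14 were low, at 2.75 (Sv2c), 3.87 (Syt2) and 2.98 (Syt10) FPKM.

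Dnajc6, the auxilin that works next to Synj1 in removing clathrin, was at 65.6 FPKM in sham, then 42.8, 50.4, 50.2, 25.8 and 55.4 FPKM, the sham value being from its starts, with ends of 47.0 in sham and 25.8 at day 14. Cacna1b, the pore of the N-type calcium channel at release sites, was at 17.97 FPKM in sham, then 14.5, 7.71, 9.54, 8.43 and 8.24 FPKM, though its sham value was a single splicing event and its ends went from 11.4 to 8.43 at day 14. Both were low at day 14, but Cacna1b was as low at day 3 and day 28 whereas Dnajc6 was near sham at day 28. Erc1, an active zone scaffold, was at 5.87 FPKM in sham, then 3.67, 7.62, 6.13, 2.61 and 4.38 FPKM, a fall at day 14 read from its ends, since its starts went from 1.85 to 2.61. Rims3, a relative of Rims1 with a longest transcript of 6505 nt, went from 23.6 FPKM in sham to 13.2 at day 14. Stxbp5l, a tomosyn that binds Stx1a, went from 10.8 to 5.86 at day 1 and 6.001 at day 14. These Stxbp5l values are from its ends, and its starts fell further, from 10.3 to 1.36 and 1.29, in the 2 libraries where starts were low in general. Ppfia2, a liprin of the active zone, was low at day 1 by its ends, at 6.90 FPKM against 20.7 in sham and more than 18 in the others, while its starts were at 8.80 in sham, 7.84 at day 1 and lowest at day 14, at 4.56. Rab27b was at 3.70 FPKM in sham and 1.66 at day 1.

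At the other end at day 14, Rab3b, a relative of Rab3a, went from 11.9 to 19.9 FPKM, and Slc32a1 from 29.6 to 42.4. The synaptotagmins Syt9 and Syt6 went from 2.13 to 3.36 (by its ends, its starts not being listed at day 14) and from 3.03 to 4.70, and Unc13b, the paralog of Unc13a, from 4.89 to 6.70. Rab3b and Rab3a therefore moved apart in that library. At day 1, Syn3 went from 0.502 to 1.18 by its starts (its ends to 0.455), Sv2c from 2.75 to 4.03 and Ppfia3 from 20.7 to 29.9 FPKM. Syn3 was below 3 FPKM in every library, far under Syn1 and Syn2.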

How the data were processed

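The authors deposited FPKM per transcript start, transcript end and splicing event for 6 libraries, each from the pooled RNA of 3 mice. The submitters' processing notes name Trimmomatic 0.30, HISAT2 2.0.1 and HTSeq 0.6.1 with build mm10. Those notes do not state the assembler or the tool that called the events. Events were matched to genes by Ensembl identifier and annotated with GENCODE M21, in which 15429 of the 15441 identifiers were found. Gene values, log2 ratios to sham (0.1 FPKM added, 1 FPKM or more in either library, genes not listed taken as 0) and calls at 2-fold were computed in Python 3.11.15 with pandas 2.3.3 and SciPy 1.17.1; figures used Matplotlib 3.10.9. The gene-value, ratio and length-bin steps were tested on simulated data. Depth per library is unknown, and with 1 library per group no test was run. Members, roles, the list of other presynaptic genes and the markers were chosen with earlier results of these data known. Named genes were all members, the 5 other presynaptic genes with the smallest and the 5 with the largest ratio at day 14, the 3 of each at day 1, genes called past 2-fold, the leading and unlisted markers and, chosen with the values in view, markers that carried or ran against the change of their list; 1 marker and 1 planned length statistic are not reported here. Alternatives changed the pseudocount, the minimum, the gene value, the event assignment, the scaling, the length trend and the treatment of genes not listed.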

Additional observations from a re-analysis of the deposited data

How the results depend on the processing

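The member median stayed below 0 at every day under all alternatives, between -0.09 and -0.04 at day 1, -0.33 and -0.29 at day 3, -0.30 and -0.27 at day 7, -0.34 and -0.09 at day 14, and -0.16 and -0.11 at day 28. The other pseudocounts and minimum values, the events inside the annotated span and a median of all genes set to 0 left the counts of members called lower and higher within 1.5 times. With summed starts as the gene value, members called lower numbered 4, 9 and 2 on days 1, 14 and 28, where 7.88%, 16.9% and 4.62% of all genes were lower, the member median at day 14 was -0.34, and the day 14 ratios of Bsn (-3.18), Unc13a (-3.44) and Slc17a6 (-3.06) turned negative, as did that of Rims2 (-1.09), and Rph3a became lower at day 3 (-1.21); the cause was not tested. With summed ends, 1 member was higher at day 3 (all genes 10.47%), Dnm1, whose end was listed in that library alone, and Nsf, with ends near 1 FPKM in sham, became lower at days 7 and 14 (all genes 3.34% and 6.68%). With genes listed in both libraries only, which drops Rims1, 1 member was lower at day 3 and 0 at day 28 (all genes 2.10% and 2.11%). With length-bin medians subtracted, 1 member was higher at day 14, Bsn, and 4 were lower, Slc17a7 being added (all genes 7.65% and 6.75%). With calls at 1.5-fold, 6 members were lower and 1 higher at day 14, against 13.4% and 18.5% of all genes. Each group was 1 pooled library, so spread between mice is unknown, as are the reads behind a value, and a gene absent from a table cannot be told apart from a gene without reads.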
